A study of Mus musculus with 9 samples.

Results

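Basal keratinocytes were profiled here for 10 genes of TGF-beta and BMP signalling, and the result turned on the 3 Id genes. Id1, Id2 and Id3 were all lower in basal cells of mice on a high-fat diet (HFD) than in control cells. In aged cells Id2 and Id3 were lower than in control cells, whereas Id1 was not called against control and was higher than in HFD cells. The ligands, receptors and Smads among the 10 genes were not called in any comparison. The genes were Tgfb1, Tgfb2, Tgfbr1, Tgfbr2, Smad3, Smad7, Bmpr1a, Id1, Id2 and Id3, taken by symbol from the deposited expression table, 10 of 22399 genes listed.

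RNA-seq was made from 9 libraries of basal cells sorted from the interfollicular epidermis of mouse plantar (footpad) skin. All animals were wild-type C57BL/6. The HFD mice were 5 months old and ate a high-fat diet, the aged mice were 24 months old with no diet stated, and the control mice were 5 months old and ate a normal diet, with 3 libraries in each group. Cells were sorted for CD49f, an integrin chain of basal cells, and against CD34, which marks stem cells of the hair follicle. Nothing states that the 3 libraries of a group came from separate animals, so p-values measure only the spread between these libraries, which may be technical.

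TGF-beta and BMP are secreted proteins that bind paired serine/threonine kinase receptors on the cell surface. Activated TGF-beta receptors phosphorylate Smad2 and Smad3, and activated BMP receptors phosphorylate Smad1, Smad5 and Smad9; both groups enter the nucleus with Smad4. Smad7 is an inhibitory Smad that both pathways induce. The Id genes are classic BMP targets: their products lack a DNA-binding region and hold basic helix-loop-helix factors, such as the E proteins, off DNA. In epidermis TGF-beta restrains keratinocyte division, and Id proteins are associated with the undifferentiated state.

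Id2 and Id3 are shown by their promoters because they were lower than in control cells in both HFD and aged cells. The windows hold 250 bases before and 50 bases after the start given by RefSeq on GRCm38.p6, which had an entry for 8 of the 10 genes (not Id1 or Smad7). The Id2 window is chr12:25096043-25096342 on the minus strand, and the Id3 window is chr4:136143572-136143871 on the plus strand. Both windows lie wholly inside the genes as annotated by GENCODE M21 (chr12:25093799-25097140 and chr4:136143497-136145755), whose outermost starts are further upstream. Distances given here are from the RefSeq start and would differ from another start. Capitals mark GGCGCC, a GC-rich sequence known to bind Smads of the BMP branch, and CCAAT, the box read by the factor NF-Y, on either strand.
Id2: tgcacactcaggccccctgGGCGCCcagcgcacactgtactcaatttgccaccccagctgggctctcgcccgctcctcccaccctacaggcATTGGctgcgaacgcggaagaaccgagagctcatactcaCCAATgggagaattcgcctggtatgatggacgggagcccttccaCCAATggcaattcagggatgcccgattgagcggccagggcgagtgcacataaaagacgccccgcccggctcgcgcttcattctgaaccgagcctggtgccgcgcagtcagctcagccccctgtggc
Id3: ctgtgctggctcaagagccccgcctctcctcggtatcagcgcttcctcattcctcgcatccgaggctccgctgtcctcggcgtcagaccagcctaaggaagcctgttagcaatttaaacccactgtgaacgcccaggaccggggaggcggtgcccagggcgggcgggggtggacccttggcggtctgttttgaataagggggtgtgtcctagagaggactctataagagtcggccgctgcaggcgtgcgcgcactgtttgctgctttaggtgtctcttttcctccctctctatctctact
The Id2 window had 1 GGCGCC, 231 bases before the start, and 3 CCAAT boxes at 159, 120 and 76 bases before it, with no overlap between motifs. The Id3 window had neither, and neither window had the exact TATA sequence TATAAA. Variants of that sequence were not searched. Over the first window of each of 27025 mouse genes, 12% held GGCGCC, 37.9% held CCAAT and 14.2% held TATAAA on at least 1 strand. Among the other windows, those of Tgfbr1 and Bmpr1a held GGCGCC. A match is a description of these letters and not a measured site.

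Expression is given as FPKM, fragments scaled to gene length and library size, the unit of the deposited table, and group values as mean ± SD over 3 libraries. Differences are those of log2(FPKM + 1) ± SE from limma, and "called" means an adjusted p (Benjamini-Hochberg) under 0.05 over the 10367 genes averaging 1 FPKM or more. All 10 genes passed that minimum. The reads in the table were estimated at 23.5 to 35.8 M per library, and each of the 10 genes rested on 251 to 6313 reads in a library. Counting error at the fewest reads was between 1.52% (Bmpr1a) and 6.31% (Tgfb2) of the value, and covers counting only.

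The sorted cells carried the basal markers: all 10 basal keratinocyte genes listed were tested, summing to 27184 to 31881 FPKM in HFD libraries, 23950 to 25047 in aged and 24054 to 30835 in control. Suprabasal genes were present too, at 6150 to 8575 FPKM in HFD, 7940 to 11041 in aged and 6487 to 8256 in control libraries. Krt1, a suprabasal keratin, was higher in aged against control, at 1936 ± 351 against 1260 ± 153 FPKM (log2 difference 0.61 ± 0.13, adjusted p = 0.0198). Itga6, which encodes the sort marker CD49f, was at 164 ± 3.61 FPKM in HFD, 124 ± 8.10 in aged and 134 ± 3.74 in control. It was higher in HFD against control (0.29 ± 0.07, adjusted p = 0.0168) and lower in aged against HFD (-0.40 ± 0.07, adjusted p = 0.00575). The part of either in the Id results was not tested. Of the defining markers of other cells, Col1a2, Col3a1 and Pdgfra (fibroblast), Kdr and Vwf (endothelial), Dct and Tyr (melanocyte), Ptprc (leukocyte), Cd3e, Cd3d and Cd3g (T cell) and Sox10 (Schwann) stayed under 0.1 FPKM in every library. Of 8 fibroblast, 8 endothelial and mural, 6 melanocyte, 6 myeloid, 6 T cell and 4 Schwann genes, 5, 5, 3, 1, 5 and 1 were under that level everywhere. Genes passing the minimum included 2 myeloid, 1 Schwann and 1 endothelial and mural gene (Cspg4). The myeloid list summed to 4.32 to 7.28 FPKM in HFD libraries, 4.51 to 6.66 in aged and 5.03 to 11.4 in control. The endothelial and mural list summed to 17.6 to 25.6 in HFD, 10.5 to 16.9 in aged and 14.4 to 21.3 in control. The Schwann list was at 7.35 to 7.48, 7.11 to 8.09 and 6.53 to 8.31 in the same order. The called genes on these lists were Dcn, Cspg4 (lower in aged against HFD, -0.65) and Thy1. Thy1 was at 34.6 ± 2.70 FPKM in HFD, 28.6 ± 4.06 in aged and 49.8 ± 3.71 in control, lower than control in both (adjusted p = 0.00807 and 0.00168), with the CD3 genes near 0; its part in the results was not tested. In bulk samples fewer cells of a type and less RNA per cell cannot be told apart.

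The members lay across a wide range of levels, Id3, Id1 and the receptor Bmpr1a being the highest in every group. Order between genes is that of FPKM and depends on the gene lengths behind it. In HFD cells Bmpr1a stood first at 29.6 ± 1.44 FPKM, with libraries overlapping those of Id3, and Id3 overlapped Id1. Tgfbr2 followed, apart from its neighbours, and then Smad3, Tgfbr1, Id2, Tgfb1 and Smad7, each overlapping the next. In aged cells Id1 stood first at 35.5 ± 4.38 FPKM, overlapping Id3, which overlapped Bmpr1a. Tgfbr2 again stood apart, and Smad3, Tgfb1, Tgfbr1, Smad7 and Id2 followed, each overlapping the next, with Id2 next to last at 4.76 ± 0.144 FPKM. In control cells Id3 (45.3 ± 5.20 FPKM) and Id1 (37.2 ± 3.99) led, and their libraries overlapped. Bmpr1a, Tgfbr2 and Id2 followed in that order, each apart from its neighbours, and then Smad3, overlapping Tgfb1, and Tgfbr1, overlapping Smad7. Tgfb2 was lowest in all 3 groups and apart from the others, at 2.12 ± 0.525 FPKM in HFD, 2.57 ± 0.388 in aged and 2.20 ± 0.245 in control.

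**Figure D1:**
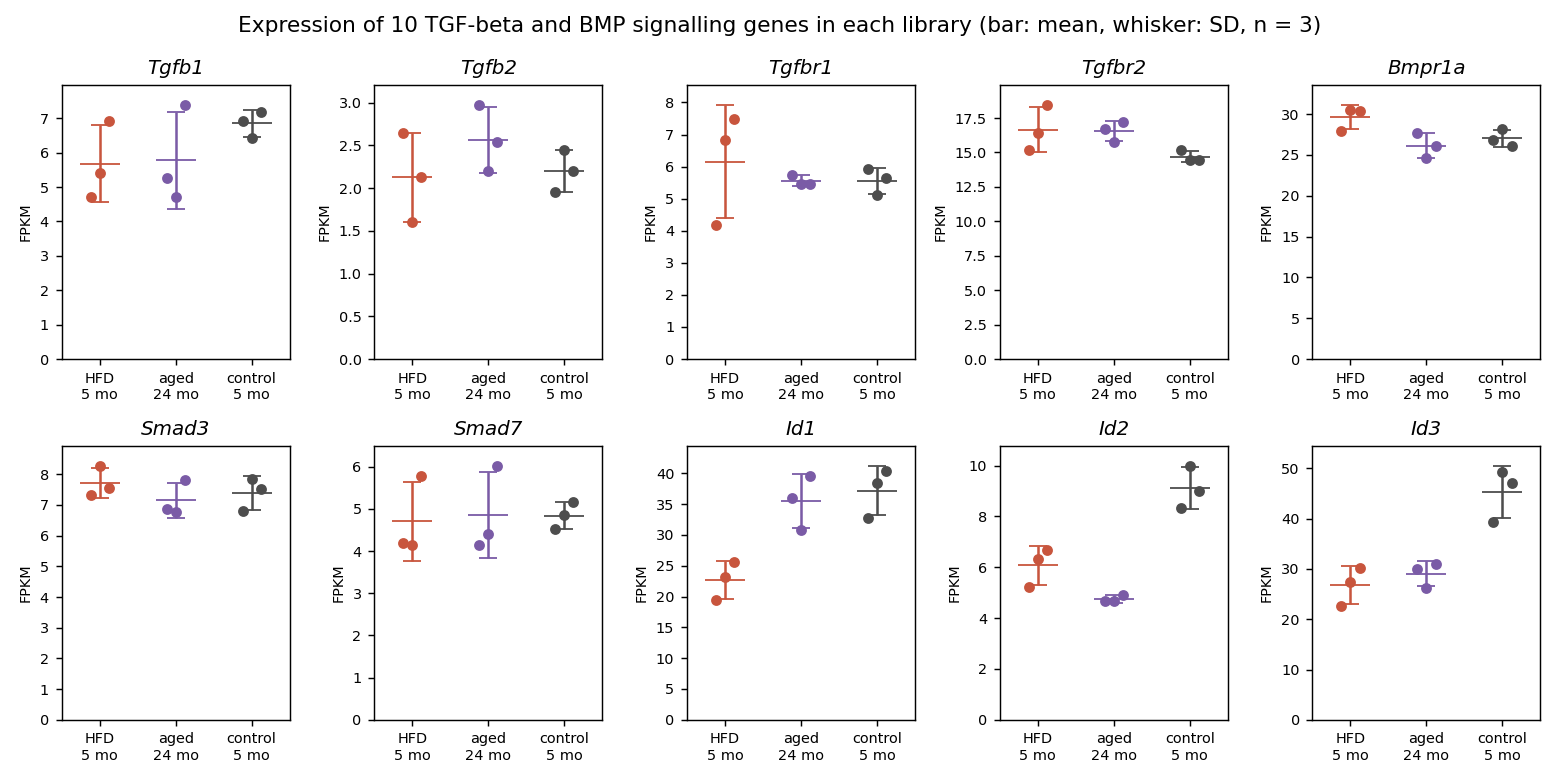
FPKM of each of the 10 genes (vertical axis, from 0) in the 3 HFD, 3 aged and 3 control libraries; points are libraries, the wide bar is the mean and the whisker the SD. Id1, Id2 and Id3 lie lower in HFD than in control, Id2 and Id3 also in aged, and the ranges of the groups overlap in most panels of the other genes.

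The comparison of HFD with control asks what a high-fat diet changes in basal cells at one age. Of the 10 genes 3 were lower and 0 higher, where 8.76% of all genes tested were lower, 8.26% higher and 17.0% called in either direction. The 3 were Id1, Id2 and Id3, and only these 3 had HFD libraries that did not overlap control, where 19.6% of all genes lay wholly below, 20.8% wholly above and 40.4% either way. The median log2 difference of the 10 was -0.05, and over all genes tested it was 0.01.

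Id3, which is highest of the 3 in control cells, had 22.7, 27.5 and 30.2 FPKM in HFD libraries, against 39.4, 49.3 and 47.1 FPKM in control libraries. Every HFD library was below every control library. The HFD mean was 59.1% of the control mean (log2 difference -0.74 ± 0.11, adjusted p = 0.00263). Id1, known in keratinocytes as a BMP-induced gene, had 19.4, 23.2 and 25.5 FPKM in HFD libraries, against 32.7, 38.4 and 40.5 FPKM in control libraries. Again the groups did not overlap, and the HFD mean was 61.0% of control (-0.69 ± 0.12, adjusted p = 0.00435). Id2, the least expressed of the 3, had 5.23, 6.33 and 6.69 FPKM in HFD libraries, against 8.35, 9.99 and 8.99 FPKM in control libraries. It too was lower in every HFD library, at 66.8% of the control mean (-0.52 ± 0.10, adjusted p = 0.00591). By size of fall among 10367 genes tested, Id3 ranked 64, Id1 85 and Id2 265.

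The other 7 genes were not called in HFD against control (lowest adjusted p = 0.165, for Tgfbr2). Tgfb1, the ligand best known for restraining keratinocyte growth, ran from 4.72 to 6.91 FPKM in HFD and from 6.43 to 7.18 in control libraries. Its difference of -0.24 had a 95% interval from -0.56 to 0.08, so that a fall of the size seen in Id2 lay inside it. The HFD libraries were the more scattered: the SD of Tgfb1 was 19.7% of the mean in HFD and 5.56% in control. Tgfb2, the second ligand, ran from 1.60 to 2.65 FPKM in HFD and from 1.96 to 2.45 in control. Tgfbr1, the signalling type I receptor for TGF-beta, ran from 4.17 to 7.49 FPKM in HFD and from 5.13 to 5.92 in control, with HFD replicate 1 lowest of all 9 libraries. Tgfbr2, the ligand-binding type II receptor, ran from 15.1 to 18.4 FPKM in HFD and from 14.4 to 15.2 in control, and its interval was -0.01 to 0.34.

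Bmpr1a, a type I receptor for BMP, ran from 28 to 30.5 FPKM in HFD and from 26.1 to 28.2 in control (log2 difference 0.13 ± 0.07, interval -0.03 to 0.28). Smad3, the transcriptional effector of TGF-beta, ran from 7.32 to 8.27 FPKM in HFD and from 6.79 to 7.85 in control. Smad7 ran from 4.14 to 5.78 FPKM in HFD and from 4.52 to 5.16 in control. The groups overlapped for all 7 genes.

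**Figure D2:**
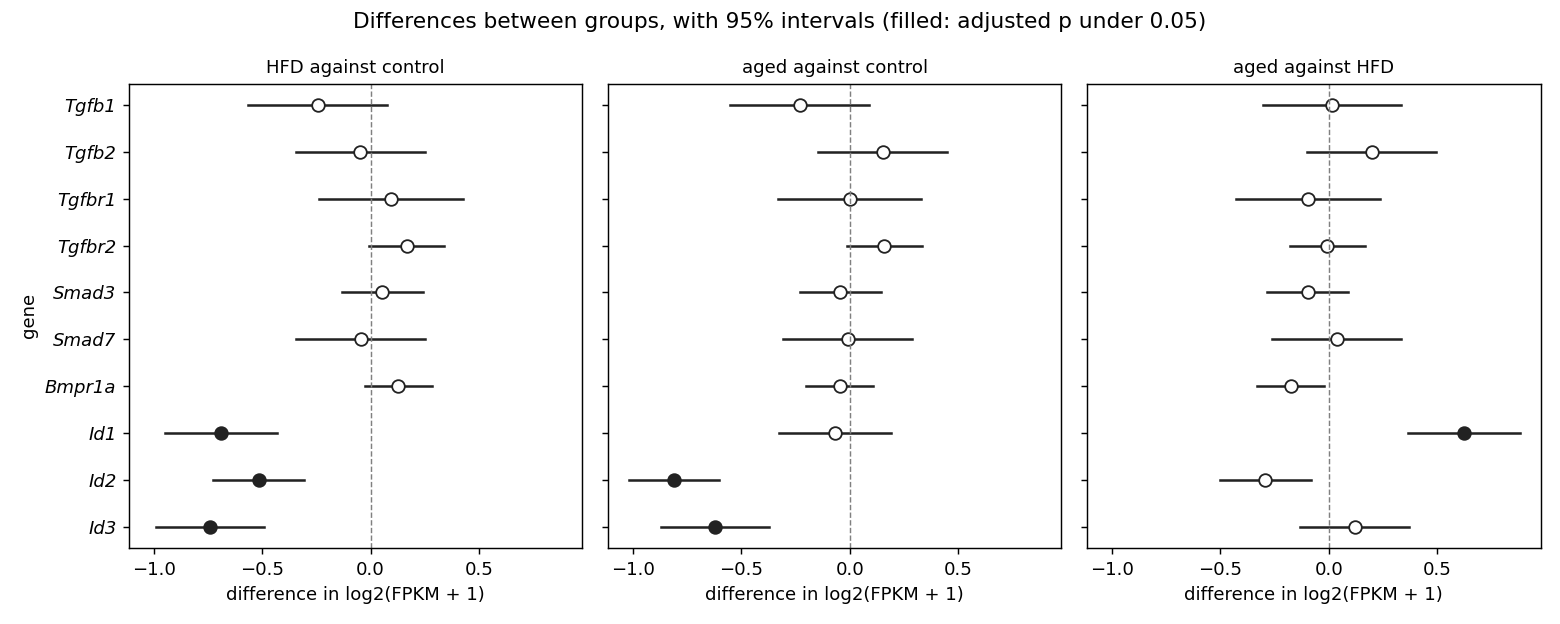
Difference in log2(FPKM + 1) (horizontal axis) for each gene in the 3 comparisons (HFD with control, aged with control, aged with HFD), with limma's 95% interval; filled points had an adjusted p under 0.05. The filled points are Id1, Id2 and Id3 on the left, Id2 and Id3 in the middle and Id1 alone on the right, where it is positive.

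The comparison of aged with control asks what differs in basal cells of 24-month-old mice. Of the 10 genes 2 were lower and 0 higher, where 3.74% of all genes tested were lower, 4.01% higher and 7.76% called in either direction. These were Id2 and Id3. Their aged libraries lay wholly below control, and those of 1 gene, Tgfbr2, wholly above, where 14.1% and 13.7% of all genes did so and 27.8% either way. The median log2 difference of the 10 was -0.04, and over all genes it was -0.01. Both comparisons share the control libraries, so that a control library that stood apart would move both.

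Id2 had 4.69, 4.66 and 4.92 FPKM in aged libraries, against 8.35, 9.99 and 8.99 FPKM in control libraries. The aged libraries lay close together and all below control, with a mean at 52.2% of control (log2 difference -0.81 ± 0.10, adjusted p = 0.00113). By size of fall Id2 ranked 22 of 10367. Id3 had 29.9, 26.2 and 31.0 FPKM in aged libraries, against 39.4, 49.3 and 47.1 FPKM in control libraries. No aged library reached the lowest control library, and the mean was 64.2% of control (-0.62 ± 0.11, adjusted p = 0.0102). Id1 differed from the other 2 in this comparison: it had 36.0, 30.8 and 39.6 FPKM in aged libraries, against 32.7, 38.4 and 40.5 FPKM in control libraries. The groups overlapped (-0.07 ± 0.12, interval -0.33 to 0.19, adjusted p = 0.755), and that interval does not reach the -0.62 estimated for Id3; the difference between the genes is described with their ratio.

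Among the remaining 7 genes the lowest adjusted p in aged against control was 0.230, for Tgfbr2. Its aged libraries, at 15.7 to 17.2 FPKM, lay above the control libraries, at 14.4 to 15.2 FPKM, with a log2 difference of 0.16 ± 0.08 that was not called. Tgfb1 ran from 4.70 to 7.38 FPKM in aged and from 6.43 to 7.18 in control, and Smad7 from 4.14 to 6.02 in aged and from 4.52 to 5.16 in control. For both genes replicate 3 was the highest library within HFD, within aged and within control. Tgfb2 ran from 2.20 to 2.97 FPKM in aged and from 1.96 to 2.45 in control, and Tgfbr1 from 5.45 to 5.75 in aged and from 5.13 to 5.92 in control. Bmpr1a was at 26.1 ± 1.52 FPKM in aged and 27.0 ± 1.05 in control, and Smad3 at 7.15 ± 0.564 in aged and 7.39 ± 0.542 in control.

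The comparison of aged with HFD sets the 2 conditions against each other. The control libraries enter only the estimate of the spread and the minimum mean that picks the genes tested. Of the 10 genes 1 was higher and 0 lower, where 3.54% of all genes tested were higher, 4.45% lower and 7.99% called in either direction. Without overlap 1 gene lay above and 2 below, where 13.9% and 15.9% of all genes did so and 29.8% either way. The gene was Id1, with 36.0, 30.8 and 39.6 FPKM in aged libraries, against 19.4, 23.2 and 25.5 FPKM in HFD libraries. Every aged library was above every HFD library, and the aged mean was 156% of the HFD mean (log2 difference 0.62 ± 0.12, adjusted p = 0.00970). Id2 lay the other way, at 78.2% of the HFD mean and with no overlap, but was not called (-0.29 ± 0.10, adjusted p = 0.0878). It was called when HFD replicate 1, the HFD library lowest in all 3 Id genes, was left out (adjusted p = 0.0458), and the other settings gave 0.0618 to 0.258. Id3 differed by 0.12 ± 0.11 (adjusted p = 0.566). Bmpr1a was lower in every aged library than in every HFD library, at 24.7 to 27.7 against 28 to 30.5 FPKM, without being called (adjusted p = 0.155).

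The proportions of the 3 Id genes to each other stood apart in aged libraries, and HFD and control libraries lay closer together. The sum of Id1, Id2 and Id3 was 47.3, 57.0 and 62.4 FPKM in HFD libraries, 70.6, 61.7 and 75.5 in aged and 80.5, 97.7 and 96.6 in control. Id1 made up 40.7% to 41.1% of that sum in HFD libraries, 49.96% to 52.4% in aged and 39.3% to 41.9% in control. Id2 made up 10.7% to 11.1% in HFD, 6.52% to 7.55% in aged and 9.31% to 10.4% in control, and Id3 47.9% to 48.4% in HFD, 41.1% to 42.5% in aged and 48.8% to 50.5% in control. Of these shares only that of Id1 overlapped between HFD and control. The ratio of Id1 to Id3 was 0.857, 0.843 and 0.846 in HFD libraries, 1.21, 1.18 and 1.27 in aged and 0.831, 0.779 and 0.858 in control. In FPKM Id1 thus exceeded Id3 in each aged library and in no other library. The order of genes in FPKM, and their shares of the sum, depend on the gene lengths used. Merged exon lengths of Id1, Id2 and Id3 in GENCODE M21 are 1160, 2438 and 1791 bases. How the groups compare within a ratio does not depend on the lengths. The ratio of Id1 to Id2 was 3.73 ± 0.0805 in HFD, 7.45 ± 0.738 in aged and 4.09 ± 0.359 in control. For both ratios the aged libraries lay above all control and all HFD libraries (exact two-sided permutation p = 0.1, the smallest that 3 against 3 libraries allow, adjusted p = 0.113 over 9 tests of 3 ratios). In HFD against control the ratio of Id1 to Id3 overlapped (exact permutation p = 0.5), while that of Id1 to Id2 was lower in all HFD libraries (exact permutation p = 0.1). The ratio of Id3 to Id2 was 4.34, 4.34 and 4.51 in HFD libraries, 6.38, 5.63 and 6.30 in aged and 4.72, 4.94 and 5.24 in control, with no overlap between any of the groups (exact permutation p = 0.1 in each comparison). This permutation test cannot go under 0.05 with 3 against 3 libraries. The shares and ratios are without the GC correction described below. With it, Id1, Id2 and Id3 differed from control by -0.61, -0.60 and -0.64 in HFD. In aged they differed from control by -0.02, -0.86 and -0.56. These ratios were chosen after the values were seen.

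**Figure D3:**
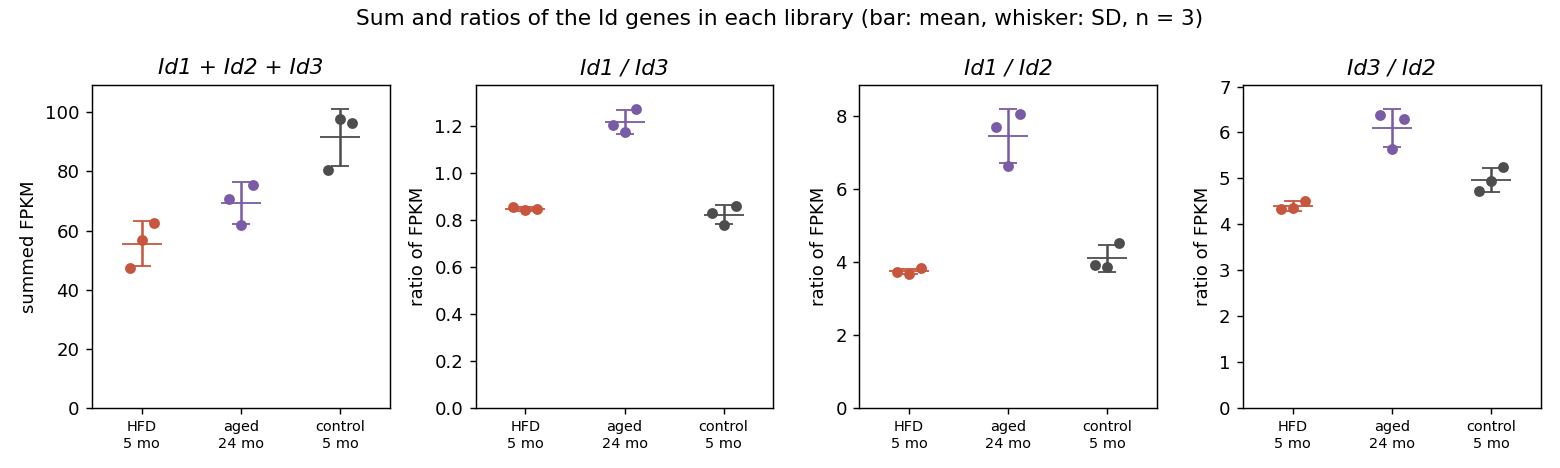
Summed FPKM of Id1, Id2 and Id3 and the ratios Id1 to Id3, Id1 to Id2 and Id3 to Id2 (vertical axes, from 0) in each HFD, aged and control library, with mean and SD. The sum is below every control library in all HFD and aged libraries, HFD and aged overlap in it, and the 3 aged libraries stand above the other 6 in each ratio.

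Other gene groups moved beside the Id genes, and their part in the result was not tested. Of 19 immediate early genes, which respond within minutes to stimulation or handling, 17 were higher and 0 lower in aged against HFD. In aged against control 13 were higher and 0 lower, and in HFD against control 3 were higher and 2 lower. Their summed level was 1099 to 1504 FPKM in HFD libraries, 2404 to 3049 in aged and 1132 to 1467 in control. Of 12 cell cycle genes 9 were higher and 0 lower in HFD against control, 0 were higher and 2 lower in aged against control, and all 12 were lower in aged against HFD. Their sum was 641 to 664 FPKM in HFD libraries, 348 to 433 in aged and 425 to 507 in control. Beside these counts, 8.26% of all genes tested were higher and 8.76% lower in HFD against control. The shares were 4.01% and 3.74% in aged against control, and 3.54% and 4.45% in aged against HFD. Fold changes also moved with the GC content of transcripts across genes: Spearman's rho was -0.46 in HFD against control, -0.33 in aged against control and 0.22 in aged against HFD over 10365 genes. The longest transcripts of Id1, Id2 and Id3 held 54.7%, 45.1% and 55.6% GC. After a GC correction the Id differences in HFD against control were -0.61 for Id1, -0.60 for Id2 and -0.64 for Id3, all called.

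The rest of the pathway was read from lists of 113 genes, of which 69 were tested. In HFD against control 8 were higher and 7 lower, in aged against control 8 were higher and 4 lower, and in aged against HFD 12 were higher and 2 lower. The medians over the 69 were 0.03, 0.09 and 0.09 on the log2 scale. As shares these are 15, 12 and 14 of 69 genes, beside 17.0%, 7.76% and 7.99% of all genes. Of these 41 calls 10 held in every alternative setting tried, and the other 31 ended in at least 1, which for each included leaving out a single library. Some of these also ended with no filter on low values, equal total FPKM, quantile normalization, robust eBayes or only the 6 libraries compared. Of the 40 calls named here, the GC correction ended those of Usp15, Tgif1, Zfyve9, Ltbp3, Snai2 and Bhlhe40 in HFD against control, Dlx3 and Tgif2 in aged against control, and Snai2, Ltbp3, Inha and Smurf1 in aged against HFD. No difference among these 40 changed its sign in any setting.

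Among ligands and what releases them, Thbs1, a matricellular protein that activates latent TGF-beta, had the largest called rise on these lists in aged cells. It had 36.9, 30.0 and 33.4 FPKM in aged libraries, against 15.1, 13.9 and 10.2 FPKM in control libraries. The groups were far apart (log2 difference 1.303 ± 0.13, adjusted p = 3.95e-04), and aged also exceeded HFD, which had 16.6, 20.0 and 19.1 FPKM (0.82 ± 0.13, adjusted p = 0.00399). Against control Thbs1 was higher in HFD as well (0.48 ± 0.13, adjusted p = 0.0268), which was lost on leaving out control replicate 2, control replicate 3, HFD replicate 2 or HFD replicate 3 (up to 0.0881). Ltbp4, a latent TGF-beta binding protein, had 33.2, 40.6 and 43.4 FPKM in HFD libraries, against 54.3, 61.5 and 66.5 FPKM in control libraries. It was lower in every HFD library (-0.63 ± 0.12, adjusted p = 0.00591). In aged cells Ltbp4 was at 42.8 ± 5.27 FPKM and also lower than control (-0.50 ± 0.12, adjusted p = 0.0265), but not once control replicate 2 or 3 or aged replicate 1 or 2 was omitted (up to 0.0963). Ltbp3, of the same family, was at 10.4 ± 0.744 FPKM in HFD, 13.4 ± 1.55 in aged and 14.1 ± 0.708 in control. It was lower in HFD against control (-0.41 ± 0.09), a call lost without control replicate 2 or HFD replicate 1, and with the GC correction, which gave -0.24 (adjusted p = 0.0556). It was higher in aged against HFD (0.33 ± 0.09), a call lost without any 1 library but aged replicate 2. Furin, a protease that cleaves TGF-beta and BMP precursors, was at 14.4 ± 0.833 FPKM in HFD and 19.3 ± 0.913 in control (-0.40 ± 0.08, adjusted p = 0.0111). Inha, the inhibin alpha chain, which opposes activin, was at 3.85 ± 0.0254 FPKM in HFD and 9.29 ± 3.19 in control (-1.04 ± 0.17, adjusted p = 0.00362), the control libraries ranging from 6.28 to 12.6 FPKM. Inha was higher in aged, at 6.61 ± 0.465 FPKM, than in HFD (0.65 ± 0.17, adjusted p = 0.0410), which was lost on omitting control replicate 3 or any HFD or aged library (up to 0.107). Inhbb, an activin chain, was at 7.65 ± 1.78 FPKM in aged and 4.08 ± 1.29 in control (0.78 ± 0.18, adjusted p = 0.0252), which was lost without control replicate 2, control replicate 3 or aged replicate 2 (up to 0.0714).

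None of the 4 BMP ligands tested was called. Bmp2 was at 5.85 ± 0.324 FPKM in HFD, 4.97 ± 1.79 in aged and 4.37 ± 1.02 in control. Bmp3, near the minimum, was at 1.06 ± 0.223, 1.29 ± 0.335 and 0.690 ± 0.0763 in the same order. Without overlap both lay above control in HFD, and Bmp3 also in aged (0.43 ± 0.14, adjusted p = 0.0796). Of all genes, 20.8% lay wholly above control in HFD and 13.7% in aged. Bmp7 was at 26.4 ± 1.64 FPKM in HFD, 26.1 ± 1.95 in aged and 24.7 ± 1.74 in control, and Bmp4 at 15.9 ± 2.77 in HFD, 13.7 ± 1.80 in aged and 14.2 ± 0.842 in control. Smad1, Smad2, Smad4 and Smad5 were tested and not called in any comparison, and their differences stayed between -0.15 and 0.15. Of 8 other receptors and coreceptors 0 were called in HFD against control, beside 17.0% of all genes. In aged against control and aged against HFD 1 each was called, beside 7.76% and 7.99% of all genes. Those were Acvrl1, a type I receptor, in aged against control (0.50 ± 0.13), and Rgma, a BMP coreceptor, in aged against HFD (0.39 ± 0.09). The Acvrl1 call was lost without any 1 library but HFD replicate 2 or aged replicate 3, and the Rgma call without HFD replicate 1 or 3. Genes named here without a call were chosen after their values were seen.

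Of the antagonists, Dcn, a proteoglycan that binds TGF-beta, had 2.34, 2.33 and 1.41 FPKM in HFD libraries, against 6.47, 4.45 and 4.75 FPKM in control libraries. It was lower in every HFD library (-1.04 ± 0.16, adjusted p = 0.00239). Dcn is also a fibroblast marker, and Fbln1, the other fibroblast gene tested, was not called in any comparison. Fstl3, a follistatin-like protein that binds activin, was at 10.7 ± 0.391 FPKM in HFD, 11.6 ± 1.19 in aged and 8.21 ± 1.04 in control, and was higher against control in both (0.35 ± 0.10 and 0.46 ± 0.10). The aged call was lost on omitting control replicate 2 or aged replicate 1 (up to 0.0640), and the HFD call on omitting control replicate 1, control replicate 2 or any HFD library (up to 0.0966). Dcn, at 3.78 ± 0.576 FPKM in aged, was higher there than in HFD (0.67 ± 0.16), which was lost without HFD replicate 3, aged replicate 1 or aged replicate 2. The list of 17 intracellular regulators holds antagonists and corepressors but also genes that aid signalling, among them Zfyve9 and Usp15. Of the 17, 3 were higher and 1 lower in HFD against control, beside 8.26% and 8.76% of all genes. The 3 were Zfyve9, which presents Smads to the receptor (0.28 ± 0.07), Usp15, a deubiquitinase (0.26 ± 0.08), and Tgif1, a corepressor (0.26 ± 0.08). The Zfyve9 call was lost without control replicate 2 or HFD replicate 3, Usp15 without any 1 HFD or control library, and Tgif1 without any of these or aged replicate 2. After the GC correction Usp15 stood at 0.14 and Tgif1 at 0.17 (adjusted p = 0.214 and 0.151). Tgif2, a corepressor too, was at 1.02 ± 0.162 FPKM in HFD, 1.10 ± 0.192 in aged and 1.87 ± 0.0545 in control. It was lower in HFD (-0.51 ± 0.11), a call lost without control replicate 2 or HFD replicate 3, and in aged (-0.46 ± 0.11), a call lost without any 1 control library, HFD replicate 2 or aged replicate 1 or 2. Smurf1, a ubiquitin ligase, was higher in aged against HFD (0.30 ± 0.08), which was lost without control replicate 3, any HFD library, aged replicate 1 or aged replicate 3. Pmepa1, an inhibitor that binds receptor-activated Smads, was at 4.02 ± 0.402 FPKM in aged, against 5.98 ± 0.658 in HFD and 5.88 ± 0.711 in control. It was lower in aged against control (-0.45 ± 0.11) and against HFD (-0.48 ± 0.11), of which the first was lost without control replicate 1, control replicate 3 or aged replicate 2, and the second without HFD replicate 2 or 3 or aged replicate 2 or 3.

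Of 9 TGF-beta targets tested 3 were higher and 0 lower in HFD against control, where 8.26% of all genes were higher. In aged against control 3 were higher and 0 lower, beside 4.01% of all genes higher, and in aged against HFD 4 were higher and 1 lower, beside 3.54% and 4.45%. Cdkn2b, the cell cycle inhibitor p15, had 4.28, 5.25 and 5.28 FPKM in aged libraries, against 1.33, 2.18 and 1.87 FPKM in control libraries. The groups were apart (1.10 ± 0.17, adjusted p = 0.00420), and HFD, at 4.76, 3.29 and 2.56 FPKM, was higher than control as well (0.68 ± 0.17, adjusted p = 0.0206). The HFD call was lost on omitting control replicate 1 or HFD replicate 1 (up to 0.0668). Bhlhe40, a transcriptional repressor, was at 72.6 ± 11.1 FPKM in aged and 39.4 ± 2.21 in control (0.86 ± 0.10, adjusted p = 0.00113). HFD, at 50.6 ± 3.62 FPKM, was higher than control (0.35 ± 0.10), a call lost without any 1 HFD or control library, and aged was higher than HFD (0.50 ± 0.10), a call lost without HFD replicate 1. Junb, an AP-1 subunit that is also on the immediate early list, was at 229 ± 49.0 FPKM in aged, against 104 ± 13 in HFD and 127 ± 17.9 in control. It was higher in aged against control (0.83 ± 0.15) and against HFD (1.12 ± 0.15). Snai2, a transcription factor of epithelial plasticity, was at 42.4 ± 5.91 FPKM in HFD, 29.7 ± 4.28 in aged and 27.9 ± 3.42 in control. It was higher in HFD against control (0.58 ± 0.13), a call lost without HFD replicate 2 and with the GC correction (adjusted p = 0.0506 and 0.0575), and lower in aged against HFD (-0.50 ± 0.13), a call lost without control replicate 2, HFD replicate 1 or 2, or aged replicate 1 or 2. Ccn2, a matricellular protein, was at 12.4 ± 3.98 FPKM in aged and 6.33 ± 1.0 in HFD (0.85 ± 0.21). The Ccn2 call was lost without any HFD library, aged replicate 2 or aged replicate 3. Tgfbi, a secreted matrix protein, was not called, at 186 ± 11 FPKM in HFD, 195 ± 14.4 in aged and 171 ± 9.47 in control.

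Of 10 BMP targets beyond the 3 Id genes and helix-loop-helix partners tested, 0 were higher and 1 lower in HFD against control, where 8.26% and 8.76% of all genes were. In aged against control 1 was higher and 1 lower, beside 4.01% and 3.74% of all genes, and in aged against HFD 2 were higher and 0 lower, beside 3.54% and 4.45%. Dlx5, a homeobox factor, was at 7.25 ± 1.4 FPKM in HFD and 10.8 ± 1.10 in control (-0.53 ± 0.13, adjusted p = 0.0182), which was lost on omitting control replicate 2 or HFD replicate 1 or 2 (up to 0.0735). Dlx3, which is known for driving epidermal differentiation, was at 9.73 ± 2.15 FPKM in aged and 13.9 ± 1.13 in control (-0.48 ± 0.13, adjusted p = 0.0455), which was lost on omitting any 1 library but aged replicate 3 (up to 0.148). Hes1, a helix-loop-helix repressor, was at 59.5 ± 9.81 FPKM in aged, against 33.8 ± 11.6 in HFD and 32.6 ± 5.94 in control. It was higher in aged against control (0.85 ± 0.20), a call lost without any control library or aged replicate 1 or 2, and against HFD (0.83 ± 0.20), a call lost without HFD replicate 2 or 3 or any aged library. Id4, the fourth family member, was low, at 1.20 ± 0.120 FPKM in HFD, 1.92 ± 0.108 in aged and 1.37 ± 0.175 in control. It was higher in aged against HFD (0.41 ± 0.11, adjusted p = 0.0389), which was lost on omitting any 1 of the HFD or aged libraries (up to 0.132). The E proteins that Id products bind were not called: Tcf3 was at 35.7 ± 1.11 FPKM in HFD, 40.1 ± 5.24 in aged and 41.6 ± 5.03 in control, and Tcf12 at 9.14 ± 0.125, 9.31 ± 0.579 and 8.71 ± 0.380 in the same order.

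**Figure D4:**
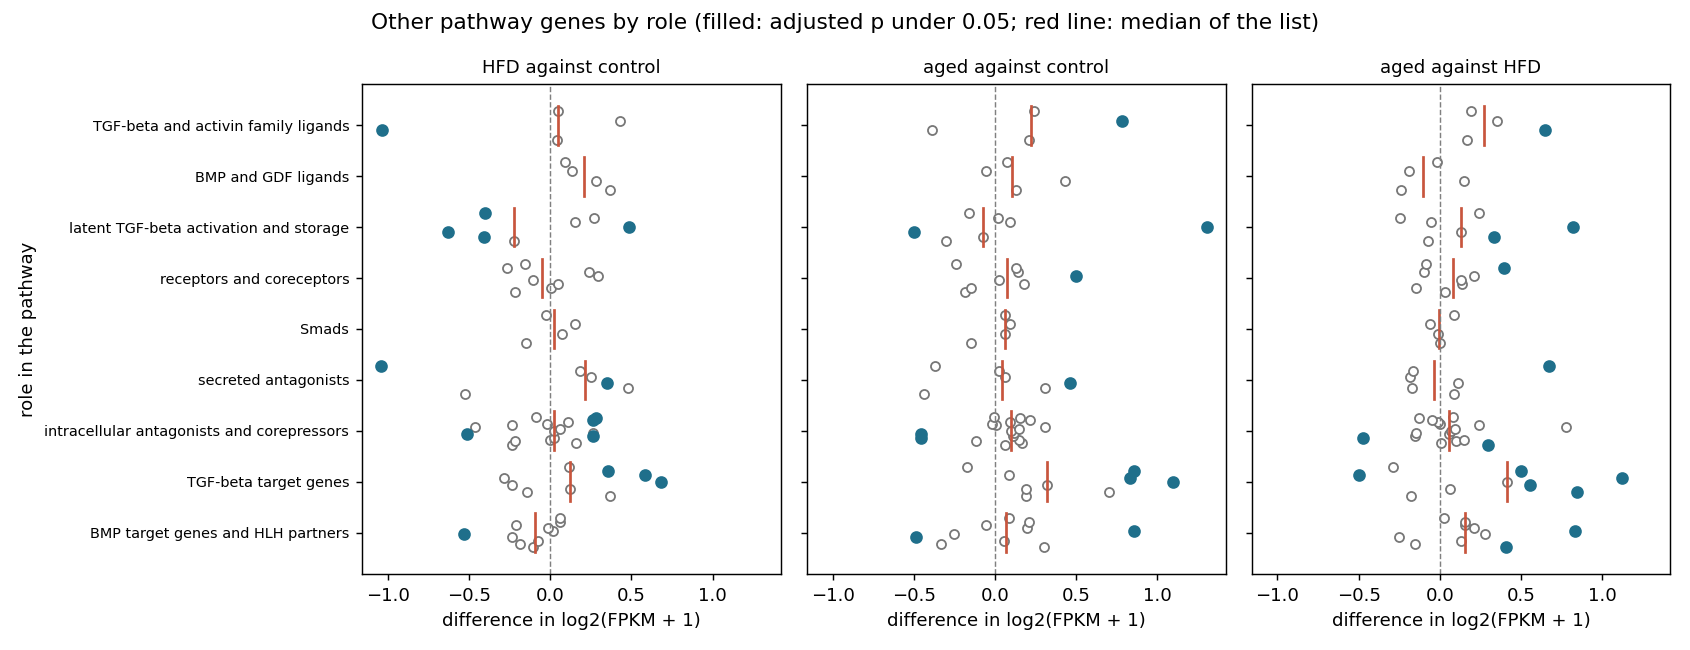
Difference in log2(FPKM + 1) (horizontal axis) of each other pathway gene tested, in rows by role, for the 3 comparisons; filled points had an adjusted p under 0.05 and the red line is the median of the row. Called genes lie on both sides of 0 in HFD against control (8 higher, 7 lower), and in aged against HFD most are to the right (12 higher, 2 lower).

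Of the 10 genes, Id2 differed most clearly among the 3 groups (limma's F test, adjusted p = 0.00148), where 20.4% of all genes were called by that test. The genes whose pattern over the 9 libraries was most like that of Id2 were Odc1, Bok, Dffa, Napa and Thbs3, with Pearson's r of log2(FPKM + 1) between 0.96 and 0.98. Odc1, the rate-limiting enzyme of polyamine synthesis, had 13.1, 14.9 and 16.0 FPKM in HFD libraries, 12.4, 12.98 and 12.6 in aged and 16.9, 18.1 and 18.7 in control. The genes most opposed were Dync2li1, Plk2, Gpha2, Apoc1 and Mxi1, with r between -0.99 and -0.96. Plk2, a polo-like kinase, had 5.41, 5.22 and 5.00 FPKM in HFD libraries, 9.05, 7.97 and 6.80 in aged and 2.84, 2.51 and 2.72 in control. The libraries fall into 3 groups, so these values of r describe mainly the differences between groups and carry no test.

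Id1 lies at chr2:152736251-152737410 on the plus strand, Id2 at chr12:25093799-25097140 on the minus strand and Id3 at chr4:136143497-136145755 on the plus strand of GRCm38, per GENCODE M21, each a protein-coding gene that overlaps no other annotated gene. Bmpr1a and Tgfb2 share 290 and 124 exon bases with antisense genes, and since the stated kit keeps strand but counting by strand is not stated, reads there cannot be told apart. No more than 0.586% of the 50-base stretches of any of the 10 genes occur in transcripts of another gene.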

How the data were processed

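RNA of sorted basal cells was made into 9 libraries with a stranded mRNA kit, per the labels, 3 each for HFD, aged and control. The authors deposited 1 table of FPKM with a column per library. The submitters' processing notes name the mm10 genome, DESeq2 1.30.0, HTSeq 0.11.2, STAR 2.6.0c and cutadapt; their roles and the gene lengths behind FPKM are not given in the sources used here. Multiplied by merged exon lengths of GENCODE M21, which matched 22285 of 22399 genes, values up to 30 reads were whole within 0.02 for 97.5% to 98.3%, which gave the reads per library and per gene.

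The test was limma 3.58.1 (R 4.3.3; trend, two-sided) on log2(FPKM + 1), in 1 model with a mean per group over all 9 libraries. It covered 10367 genes averaging 1 FPKM or more, and p was adjusted over all of them. The steps were checked on simulated data. Alternatives were a pseudocount of 0.1, no filter, a minimum mean of 5 FPKM, quantile normalization, equal total FPKM, robust eBayes, a replicate block, only the 6 libraries compared, a loess GC correction (span 0.5) without and with the block, and leaving out each library.

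The genes and lists were chosen with earlier results of these data known. Named were all 10 genes, up to 4 called genes per pathway list and comparison, and the 5 genes most and 5 least like the leading gene in pattern. Single-cell data of the series were not used here.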

Additional observations from a re-analysis of the deposited data

How the results depend on the processing

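All 6 calls of Id genes (3 in HFD against control, 2 in aged against control, 1 in aged against HFD) kept direction and call in each of the 19 alternatives run for them. Their highest adjusted p were 0.0217, 0.0287 and 0.0156 for Id1, Id2 and Id3 in HFD, 0.0102 and 0.0452 for Id2 and Id3 in aged, and 0.0427 for Id1 in aged against HFD. Leaving out single libraries gave 1 to 2 of the 10 genes called in aged against HFD (2 without HFD replicate 1). Of the named pathway calls, 560 repeats in an alternative were called and 192 were not.

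Calls over all genes ranged from 749 to 2111 in HFD against control when 1 library was left out: 749 without control replicate 2, and 877, 900 and 1012 without HFD replicates 1, 2 and 3. In aged against control they ranged from 304 to 1254: 304, 387 and 1254 without aged replicates 1, 2 and 3, and 320 and 318 without control replicates 2 and 3. In aged against HFD they ranged from 381 to 775: 475, 381 and 391 without HFD replicates 1, 2 and 3, and 448 without aged replicate 1. The F test gave 1163 to 2479: 1204 without control replicate 2, and 1228, 1163 and 1325 without HFD replicates 1, 2 and 3. Of the 69 pathway genes 7 to 17 were called in HFD against control (7 without control replicate 2, 8 and 9 without HFD replicates 2 and 3). In aged against control 5 to 12 were called (5 without control replicate 2, control replicate 3 or aged replicate 2, 6 without aged replicate 1). In aged against HFD 5 to 13 were called (5, 6 and 6 without HFD replicates 1, 2 and 3, and 8, 6 and 7 without the aged ones).

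With no filter on low values 9 pathway genes were called in HFD against control and 4 in aged against HFD, and 541 of all genes in aged against HFD. With only the 6 libraries compared 469 of all genes were called in aged against control. The GC correction gave 1161 genes in HFD against control and 9 pathway genes in aged against HFD. The cause was not tested.

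The replicate block, with replicate numbers as pairs, gave 2061, 1137 and 987 calls over all genes for HFD with control, aged with control and aged with HFD, and 3, 2 and 1 among the 10 genes. Same-numbered libraries correlated in their deviations from group means at -0.05 to 0.27, and differently numbered ones at -0.29 to 0.22. The sample titles give the number after the letters ex in every group. Nothing in the labels says what ex or a shared number means. Whether same-numbered libraries share an experiment or batch was not tested.

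Signs turned only in differences that were not called. After GC correction, both without and with a replicate block, Tgfbr1, Bmpr1a and Smad7 stood at -0.042, -0.0049 and 0.088 in HFD against control, Tgfbr1 and Smad7 at -0.081 and 0.064 in aged against control, and Tgfb1 and Smad7 at -0.0069 and -0.024 in aged against HFD. Quantile normalization gave -0.0082 for Tgfbr1 in aged against control, and -0.0019 for Tgfb1 and 5.4e-04 for Tgfbr2 in aged against HFD. Equal total FPKM gave -0.028 for Tgfbr1 in aged against control and 0.011 for Tgfbr2 in aged against HFD. Without single libraries the ranges in aged against control were -0.15 to 0.026 (Id1), -0.15 to 0.078 (Smad7) and -0.048 to 0.039 (Tgfbr1). In HFD against control they were -0.18 to 0.024 (Smad7), -0.17 to 0.079 (Tgfb2) and -0.045 to 0.31 (Tgfbr1). In aged against HFD they were -0.10 to 0.17 (Smad7), -0.15 to 0.14 (Tgfb1), -0.31 to 0.045 (Tgfbr1) and -0.068 to 0.065 (Tgfbr2). Read number limited Tgfb2 most, with 251 reads in the library where it had the fewest.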
